A study of Mus musculus with 8 samples.

Results

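Hypoxia-inducible factor (HIF) is best known for switching on glycolysis, but many of its target genes have nothing to do with sugar metabolism. A list of 38 such mouse genes, all outside glycolysis, was followed in B16F10 cells, a mouse melanoma line, in which cyclophilin D (CypD) had been knocked out or was to be overexpressed. The genes were taken by their symbols from the 55414 genes of the expression table, and each of the 38 was found there. Of these, 31 reached 1 TPM or more in 2 or more libraries and were tested, and 7 did not. The list covers 11 regulators of transcription, 5 genes of growth, cell cycle and death, 2 ubiquitin ligase components, 4 enzymes and trafficking proteins of the secretory pathway, 6 secreted or surface-anchored factors, 5 membrane receptors, adhesion proteins and scaffolds, 2 metabolic enzymes and 3 others.

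RNA was sequenced from 4 groups of 2 libraries each, after 24 h in the stated oxygen concentration. WT cells and CypD KO cells, in which *Ppif* (the gene of CypD) had been edited with CRISPR/Cas9 and clones selected with puromycin, were kept at 21% O2. Control cells, which stably carried pcDNA without an insert, and CypD OE cells, which stably carried pcDNA-CypD, were both selected as G418-resistant clones and kept at 1% O2. CypD KO therefore differs from WT in genotype, selection and clone, and Control differs from WT in oxygen, vector, selection and clone. CypD KO differs from Control in genotype, line and oxygen. CypD OE cells differ from Control in the construct and in the clones selected. Within each comparison these cannot be told apart. How many clones each line represents, and whether the libraries of a group came from separate cultures, is not given in the sources used here, so the p-values measure the spread between these libraries, which may be technical. *Ppif* was 50.7 and 50.0 TPM in WT, 10.4 and 12.1 TPM in CypD KO, 44.6 and 42.3 TPM in Control and 50.3 and 49.3 TPM in the last group, whose excess over Control did not pass the threshold (limma adjusted p = 0.0794). The libraries of that group are therefore called CypD OE-labelled libraries.

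When oxygen is plentiful, prolyl hydroxylases of the Egln family mark the HIF alpha subunits, and the VHL ubiquitin ligase sends them for degradation. At low oxygen the alpha subunit persists, pairs with ARNT and binds a short core motif, ACGTG or GCGTG, near its target genes. CypD sits inside mitochondria, where it makes a large channel, the permeability transition pore, open more readily. The targets followed here slow growth and mTORC1 signalling (*Ddit4*, *Mxi1*), repress transcription (*Bhlhe40*, *Bhlhe41*), fold, amidate or traffic secreted proteins (*Ero1a*, *Pam*, *Tpd52*), and act outside the cell (*Mif*, *Stc1*).

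Of the 38 genes, 30 had a promoter in the RefSeq table of mouse promoters (GRCm38.p6), 8 of them with several starts, of which the first was taken. Within the 250 bases before the start, 22 of these 30 (73.3%) held ACGTG or GCGTG on either strand, and so did 58.2% of the 9532 promoters of all tested genes and 38.6% of all 27025 promoters. ACGTG was found in 12 of the 30 and in 22.7% of the promoters of tested genes, and GCGTG in 20 (66.7%) and 46.6%. Some promoters, such as that of *Ankrd37*, held both. Matches to ACGTG within CACGTG, the E-box, were counted too. A match of this length is a description of the sequence and not evidence of binding. The 9 stretches of 29 bases that follow each hold an ACGTG match from a member with 1 RefSeq start that was higher in Control than in WT. They show ACGTG as 1 form of the core motif, and matches to GCGTG are not marked. For each, the 250 bases before the start were found once on its GRCm39 chromosome, and the stretch was placed within them. Each stretch is written 5′ to 3′ on the strand of the gene, with the match in capitals. Where the match lies on the other strand it reads CACGT.
*Ankrd37* (chr8:46453109-46453137, minus strand, intron): cccagcagtACGTGcctagctcggctcgc
*Ero1a* (chr14:45556076-45556104, minus strand, intron): cgcgcgccgctgCACGTccgcaggggagg
*Ddit4* (chr10:59787763-59787791, minus strand, exon or UTR): agaacgttgcgaACGTGcgcccggtgcct
*Fam162a* (chr16:35891996-35892024, minus strand, exon or UTR): ccgctcgtcgcgCACGTcccgcacgcccg
*Rora* (chr9:68560869-68560897, plus strand, outside the gene model): ccaaacccgcctCACGTcccctctcggcc
*Dusp1* (chr17:26727556-26727584, minus strand, intron): tcaccgcccggtCACGTGtctgccattca
*Sap30* (chr8:57940981-57941009, minus strand, outside the gene model): ccgctggtcccgCACGTaatcagaacaga
*Selenbp1* (chr3:94840178-94840206, plus strand, outside the gene model): catgtgtatataCACGTacacatgtgcac
*Bhlhe41* (chr6:145811283-145811311, minus strand, exon or UTR): tggtacgttccgCACGTGagctgggtgct
The notes in brackets say where GENCODE vM39 places the stretch relative to any transcript of that gene. In *Dusp1* and *Bhlhe41* the capitals form CACGTG, which reads the same on both strands.

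Expression was compared as log2(TPM + 1), TPM being the relative abundance of a gene's transcripts, corrected for length and scaled to a fixed total. A mean was fitted per group over all 8 libraries with limma, and a gene was called at a Benjamini-Hochberg adjusted p under 0.05 over 13526 genes. On this scale differences of genes at low TPM are understated. Gene positions are those of GENCODE vM39 on GRCm39. With 2 libraries per group an exact two-sided permutation test of a single gene could reach no p below 0.333, so none was run. The 2 libraries of a group correlated at 0.983 to 0.985 over genes, and 1 fragment on 1000 effective bases was worth 0.082 to 0.098 TPM. All 7 melanocyte markers (*Mlana*, *Pmel*, *Tyr*, *Tyrp1*, *Dct*, *Mitf*, *Sox10*) were expressed in every library. Their summed level was 15665 to 15755 TPM in WT, 12433 to 12587 TPM in CypD KO, 20446 to 20984 TPM in Control and 13586 to 13758 TPM in CypD OE-labelled libraries. The sum is set by the most abundant of them, and single markers went other ways. Against WT, 1 was higher and 5 lower in CypD KO, 6 were higher and 0 lower in Control, and 3 were higher and 4 lower in CypD OE-labelled libraries. Over all genes tested, 30.1% were higher and 18.4% lower in CypD KO, and 12.1% were higher and 12.1% lower in Control. In CypD OE-labelled libraries 14.0% were higher and 13.7% lower. The marker higher in CypD KO was *Tyr* (37.4 and 41.2 TPM in WT, 167 and 147 TPM in CypD KO). Of 6 leukocyte markers 5 stayed under 1 TPM in every library, with *Adgre1* and *Cd3e* listed at 0, and the exception was *Cd68*, so that the sum was 22.3 to 23.5 TPM in CypD KO and 1.15 to 4.81 TPM elsewhere. The 7 fibroblast markers summed to 35.4 to 38.3 TPM in CypD KO and 10.4 to 22.8 TPM elsewhere, with *Dcn* listed at 0. The higher sum in CypD KO came from *Postn* (8.04 and 8.07 TPM in WT, 34.8 and 31.2 TPM in CypD KO), while the other 2 that were tested, *Col1a2* and *Pdgfrb*, were lower in CypD KO than in WT, at means of 1.63 against 7.95 TPM and 1.16 against 2.50 TPM. None of 5 endothelial markers passed the filter. The part of these marker levels in the results that follow was not tested.

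Most of the tested targets were raised in CypD KO cells at normal oxygen and also in Control cells at 1% O2. The members were chosen with earlier results of these data known. In CypD KO, 25 of the 31 were higher than in WT and 3 were lower, where 30.1% of all genes tested were higher and 18.4% lower. Of the 25, 16 were higher by at least 1 on the log2 scale, a size reached by 7.47% of all genes. *Zfp395*, counted among both, would not have passed the filter without its CypD KO libraries. *Stc1*, also counted among both, passed it only through groups in which it was higher than in WT. In Control, 23 were higher than in WT and 1 was lower, against 12.1% of all genes higher and 12.1% lower, and 14 were higher by at least 1, against 1.34% of all genes. The median log2 difference over the 31 members was 1.05 in CypD KO and 0.91 in Control, where the median over all genes was 0.09 and 0.01. Under median-of-ratios rescaling the calls over all genes in CypD KO moved from 4066 higher and 2486 lower to 3187 higher and 3482 lower, and 24 members were called higher and 4 lower.

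Sorted by these comparisons, which share the WT libraries, 19 members were higher in both CypD KO and Control, and 7.59% of all genes were. Another 6 were called higher in CypD KO but not in Control (22.5% of all genes), 4 in Control but not in CypD KO (4.5% of all genes) and 2 in neither (65.4% of all genes). With a log2 difference of at least 1 required in each, 11 members were higher in both, against 0.68% of all genes. The genes higher in both thus made up 61.3% of the members tested, and those called in CypD KO but not in Control made up 19.4%, close to their share of all genes. A call in one comparison and not in the other does not show that the groups differ. That difference was tested directly, as CypD KO against Control, and is given with each set.

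**Figure D1:**
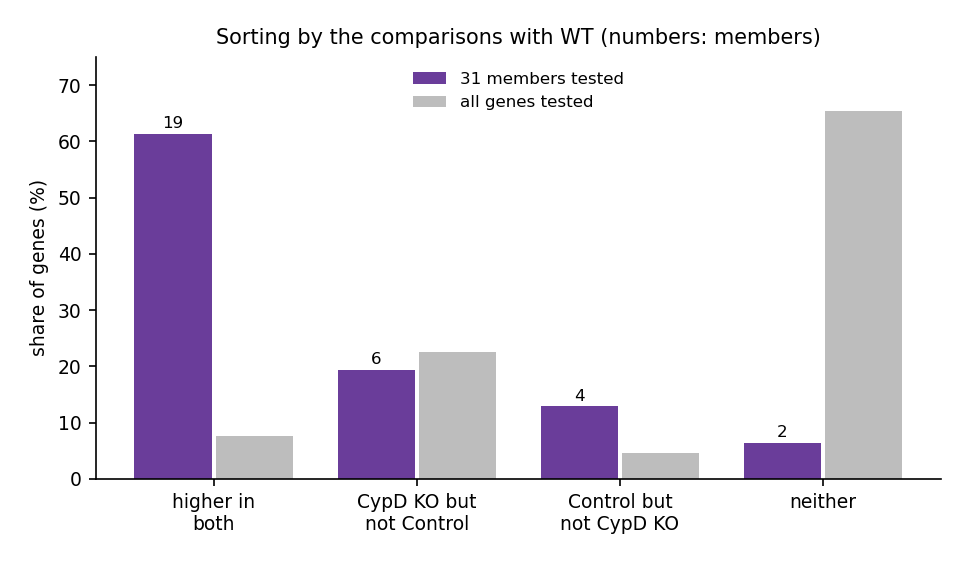
Share (%) of the 31 tested members (purple) and of all 13526 genes tested (grey) that were called higher than WT in both CypD KO and Control, in CypD KO but not Control, in Control but not CypD KO, or in neither, with the number of members above each purple bar. The genes higher in both make up 61.3% of the members and 7.59% of all genes.

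The 19 genes raised in both groups came from every role except the ubiquitin ligase components. Their log2 differences ran from 0.29 to 2.61 in CypD KO and from 0.59 to 3.01 in Control. On the log2(TPM + 1) scale *Ak4*, *Ankrd37*, *Dusp1* and *Fam162a* rose most in CypD KO. By the ratio of mean TPM to that of WT, *Stc1*, scarce in WT, came first at 11.7, ahead of *Ankrd37* at 9.78. The ratio of *Stc1* divides by WT values of only 0.09 and 0.22 TPM, and on the log2(TPM + 1) scale it rose by 1.28. It passed the filter only through groups in which it was higher than in WT.

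*Ak4* (ENSMUSG00000028527, chr4:101276265-101324968), a mitochondrial adenylate kinase that passes phosphate between nucleotides, was 8.89 and 8.96 TPM in WT, 62.4 and 57.1 TPM in CypD KO, 81.5 and 76.2 TPM in Control, and 10.01 and 11.6 TPM in CypD OE-labelled libraries. Both raised groups stood far above WT, Control above CypD KO, and CypD OE-labelled libraries lay just above WT. On the log2 scale it differed from WT by 2.61 in CypD KO (standard error 0.08, limma adjusted p = 2.65e-06) and 3.01 in Control (limma adjusted p = 4.35e-06).

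*Fam162a* (ENSMUSG00000003955, chr16:35863243-35892123), a mitochondrial protein linked to cell death in hypoxia, was 113.7 and 93.0 TPM in WT, 471 and 451 TPM in CypD KO, 674 and 697 TPM in Control, and 90.9 and 92.9 TPM in CypD OE-labelled libraries. Its order over the groups was that of *Ak4*, except that CypD OE-labelled libraries lay below WT. It rose by 2.15 in CypD KO (standard error 0.09, limma adjusted p = 5.64e-06) and by 2.73 in Control (limma adjusted p = 7.74e-06) on the log2 scale.

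*Dusp1* (ENSMUSG00000024190, chr17:26724564-26781102), a phosphatase that switches off MAP kinases, was 5.95 and 7.58 TPM in WT, 37.9 and 36.4 TPM in CypD KO, 17.0 and 18.6 TPM in Control, and 10.1 and 10.3 TPM in CypD OE-labelled libraries. Here CypD KO was the highest group, with no overlap between any 2 groups. Its log2 difference from WT was 2.30 in CypD KO (standard error 0.11, limma adjusted p = 1.16e-05) and 1.28 in Control (limma adjusted p = 0.000496). *Dusp1* is also an immediate early gene. Of 8 other immediate early genes tested, 8 were higher in CypD KO, and 2 were higher and 2 lower in Control. Over all genes tested, 30.1% were higher in CypD KO, and 12.1% were higher and 12.1% lower in Control.

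*Ankrd37* (ENSMUSG00000050914, chr8:46449939-46458744), an ankyrin repeat protein, was 1.01 and 0.80 TPM in WT, 8.78 and 8.93 TPM in CypD KO, 6.82 and 7.70 TPM in Control, and 1.47 and 0.52 TPM in CypD OE-labelled libraries. The rise was 2.37 in CypD KO (standard error 0.23, limma adjusted p = 0.000219) and 2.12 in Control (limma adjusted p = 0.00124) on the log2 scale. The gene overlaps *Ufsp2* and *Lrp2bp* on the opposite strand, and whether counting used strand is not given in the sources used here. *Ufsp2* itself was 40.4 to 41.6 TPM in WT, 55.4 to 57.6 TPM in CypD KO, 44.9 to 48.1 TPM in Control and 46.5 to 49.8 TPM in CypD OE-labelled libraries. Its mean was 1.38 times that of WT in CypD KO and 1.04 times that of Control in CypD OE-labelled libraries, where the mean of *Ankrd37* was 9.78 and 0.137 times. The part of reads from either overlapping gene in the level of *Ankrd37* was not tested, and *Lrp2bp* was not examined.

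The remaining genes of this set are given by group mean ± SD (n = 2). *Ddit4*, which encodes the mTORC1 inhibitor REDD1, averaged 8.45 ± 1.2 TPM in WT, 39.98 ± 0.20 TPM in CypD KO and 41.8 ± 0.45 TPM in Control. The rise was nearly the same in both groups, at 2.12 and 2.18 on the log2 scale (limma adjusted p = 8.46e-06 and 2.91e-05). *Ero1a*, the oxidase that recycles protein disulfide isomerase in the endoplasmic reticulum, averaged 88.1 ± 7.1 TPM in WT, 303 ± 16 TPM in CypD KO and 266 ± 7.1 TPM in Control. *Ccng2*, an atypical cyclin tied to cell cycle arrest, was 3.07 ± 0.38 TPM, 12.9 ± 0.14 TPM and 9.50 ± 0.95 TPM in the same order. Both rose by over 1 in each comparison, *Ero1a* by 1.77 and 1.58 and *Ccng2* by 1.77 and 1.37.

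Among the regulators of transcription in this set, the nuclear receptor gene *Rora* rose by 1.38 in CypD KO and 1.54 in Control, and *Pnrc1*, a nuclear receptor coactivator, by 1.38 and 1.19. *Mxi1*, which competes with MYC for its partner MAX, rose by 0.81 and 1.01. *Sap30*, a subunit of the Sin3 histone deacetylase complex, rose by 0.44 and 0.70. Of the secreted factors, *Cp* (ceruloplasmin, a copper-bearing ferroxidase) rose by 1.05 and 1.38. *Mif*, the cytokine macrophage migration inhibitory factor, was the most abundant member in each of the 8 libraries, at 724 to 1664 TPM, and rose by 0.29 in CypD KO and by 0.91 in Control. The pseudogene *Mif-ps4*, with which it may share reads, was listed at 8.46 to 37.9 TPM. *Narf*, a prelamin A binding protein, rose by 0.61 and 1.06, and *Tpd52*, which acts in vesicle traffic, by 0.55 and 0.59. Each of these 8 genes had a limma adjusted p of at most 0.0051 in both comparisons.

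**Figure D2:**
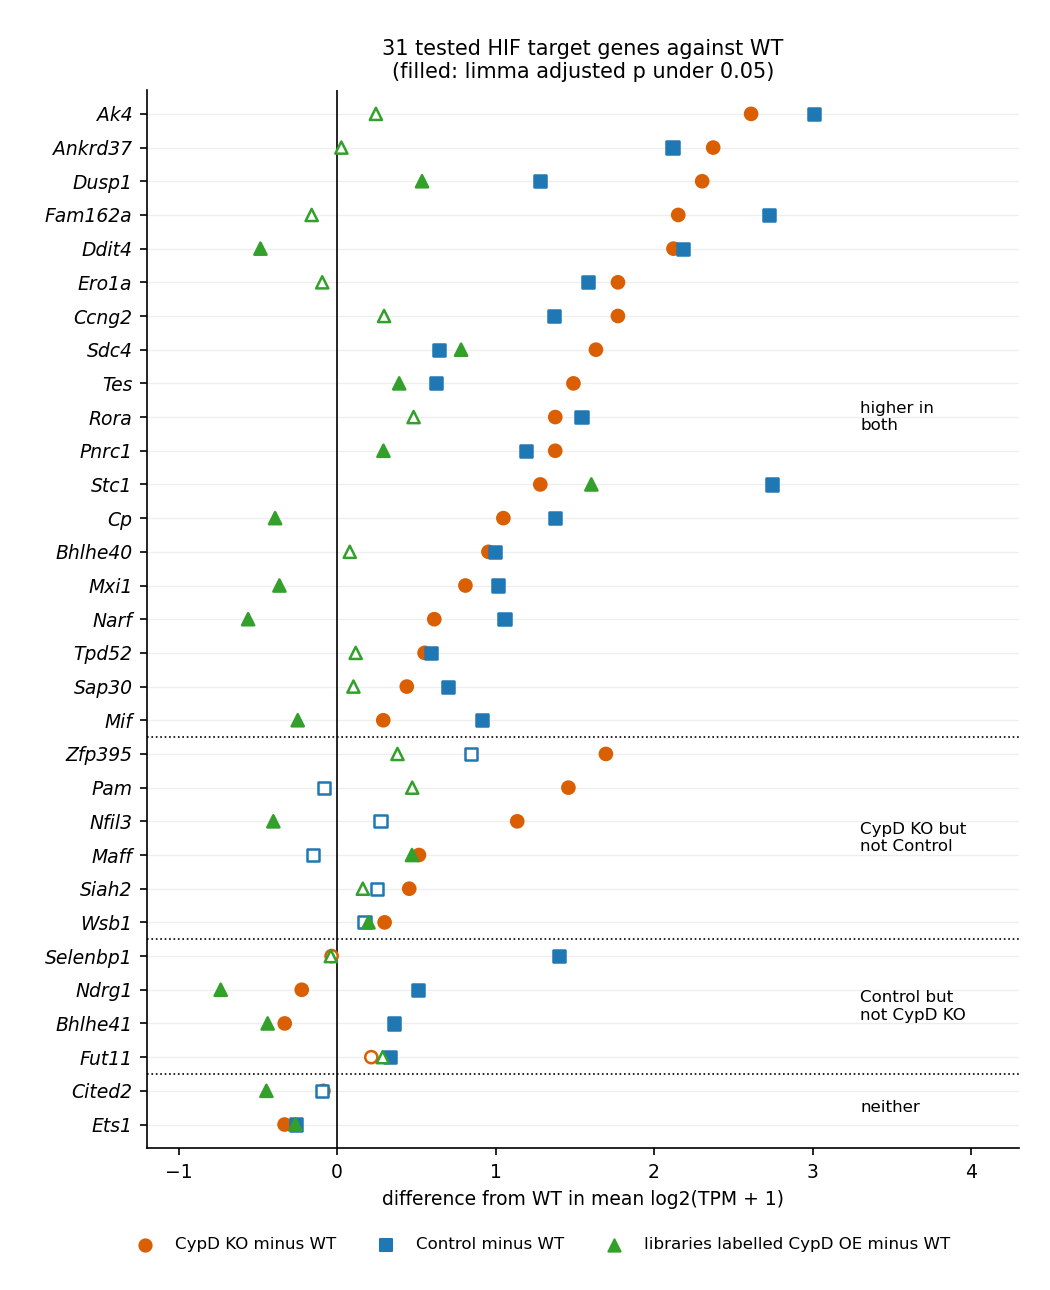
Difference from WT in mean log2(TPM + 1) for each of the 31 tested members (rows, sorted by set) in CypD KO (circles), Control (squares) and CypD OE-labelled libraries (triangles), filled where the limma adjusted p was under 0.05. For the 19 genes at the top, circles and squares lie to the right of 0, while the triangles lie between -0.56 and 1.60.

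Genes called higher in CypD KO but not in Control numbered 6, namely *Zfp395*, *Pam*, *Nfil3*, *Maff*, *Siah2* and *Wsb1*. For *Pam*, *Nfil3* and *Maff* the level in CypD KO was also above that in Control by the direct test. For the other 3 it was not shown to differ.

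*Pam* (ENSMUSG00000026335, chr1:97722839-98023399), the enzyme that amidates peptide hormones in the secretory pathway, was 17.9 and 13.9 TPM in WT, 45.4 and 44.9 TPM in CypD KO, 17.0 and 13.0 TPM in Control, and 22.8 and 21.8 TPM in CypD OE-labelled libraries. The Control libraries overlapped WT, and both CypD KO libraries stood clear of the other 3 groups. Its log2 difference from WT was 1.46 in CypD KO (standard error 0.15, limma adjusted p = 0.00027) and -0.08 in Control (95% interval -0.43 to 0.27, limma adjusted p = 0.729), and CypD KO exceeded Control by 1.54 (limma adjusted p = 0.00025).

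*Nfil3* (ENSMUSG00000056749, chr13:53121245-53137010), a basic leucine zipper repressor, was 8.80 and 8.02 TPM in WT, 19.5 and 19.8 TPM in CypD KO, 9.37 and 11.5 TPM in Control, and 5.79 and 6.45 TPM in CypD OE-labelled libraries. CypD KO was again the high group and CypD OE-labelled libraries the low one. Relative to WT, the log2 difference was 1.14 in CypD KO (standard error 0.11, limma adjusted p = 0.000252) and 0.27 in Control (limma adjusted p = 0.126), and that between CypD KO and Control was 0.86 (limma adjusted p = 0.00101).

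*Maff* (ENSMUSG00000042622, chr15:79230821-79243276), a small MAF protein that pairs with other leucine zipper factors, was 5.31 and 4.69 TPM in WT, 7.29 and 7.86 TPM in CypD KO, 4.59 and 4.20 TPM in Control, and 7.15 and 7.48 TPM in CypD OE-labelled libraries. CypD KO and CypD OE-labelled libraries were both above WT, and both Control libraries lay below. On the log2 scale it differed from WT by 0.52 in CypD KO (limma adjusted p = 0.00653) and -0.15 in Control (limma adjusted p = 0.344). CypD KO was above Control by 0.67 (limma adjusted p = 0.00236).

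*Zfp395* (ENSMUSG00000034522, chr14:65595537-65636384), a zinc finger gene, was scarce, at 0.09 and 0.50 TPM in WT, 2.15 and 4.45 TPM in CypD KO, 1.65 and 0.99 TPM in Control, and 0.68 and 0.65 TPM in CypD OE-labelled libraries. Without the CypD KO libraries it would not have passed the filter of 1 TPM in 2 libraries. The group in which it was called thus also decided that it was tested. Both Control libraries were above both WT libraries without passing the test. The log2 difference was 1.70 in CypD KO (standard error 0.31, limma adjusted p = 0.00393) and 0.84 in Control (limma adjusted p = 0.093), and that between CypD KO and Control was 0.85 (95% interval 0.12 to 1.59, limma adjusted p = 0.0629). This last value was 1.25 without the first CypD KO library (limma adjusted p = 0.027) and 0.46 without the second, when it was not called.

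The 2 ubiquitin ligase components rose little. *Siah2*, whose product targets prolyl hydroxylases for degradation, averaged 6.89 ± 0.27 TPM in WT, 9.84 ± 1.0 TPM in CypD KO and 8.44 ± 1.4 TPM in Control (n = 2), a log2 difference from WT of 0.45 in CypD KO (limma adjusted p = 0.0263) and 0.25 in Control (limma adjusted p = 0.215). Its call was lost without either WT library (limma adjusted p = 0.103 and 0.0685) or without the first CypD KO library (limma adjusted p = 0.133). *Wsb1*, a SOCS box protein, averaged 70.7 ± 4.1 TPM, 87.2 ± 4.0 TPM and 79.7 ± 3.0 TPM in the same order, with 0.30 in CypD KO (limma adjusted p = 0.00574) and 0.17 in Control (limma adjusted p = 0.079). Against Control, CypD KO differed by 0.20 in *Siah2* (95% interval -0.11 to 0.52) and by 0.13 in *Wsb1* (95% interval -0.01 to 0.27).

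Genes called higher in Control but not in CypD KO were *Selenbp1*, *Ndrg1*, *Bhlhe41* and *Fut11*, and the first 3 were also lower in CypD KO than in Control by the direct test.

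*Selenbp1* (ENSMUSG00000068874, chr3:94840334-94852203), a methanethiol oxidase, was 6.95 and 7.60 TPM in WT, 7.32 and 6.83 TPM in CypD KO, 20.2 and 21.5 TPM in Control, and 7.73 and 6.41 TPM in CypD OE-labelled libraries. Control stood alone, and the other 3 groups overlapped. Its log2 difference from WT was 1.40 in Control (standard error 0.11, limma adjusted p = 0.00035) and -0.03 in CypD KO (95% interval -0.29 to 0.22), and CypD KO lay below Control by a log2 difference of -1.44 (limma adjusted p = 8.93e-05). Its near copy *Selenbp2* was listed at 0 in 7 libraries and at 0.09 TPM in the other.

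*Ndrg1* (ENSMUSG00000005125, chr15:66801166-66841835), a stress-responsive gene that restrains growth and is widely used as a marker of hypoxia, was 33.3 TPM in each WT library, 27.6 and 29.2 TPM in CypD KO, 47.1 and 48.6 TPM in Control, and 19.6 and 19.5 TPM in CypD OE-labelled libraries. CypD KO and CypD OE-labelled libraries were below WT, and Control was above it. Relative to WT, the log2 difference was 0.51 in Control (limma adjusted p = 0.000943) and -0.22 in CypD KO (limma adjusted p = 0.0112), the latter call being lost without the first CypD KO library (-0.18, limma adjusted p = 0.0675). CypD KO and Control differed by -0.74 (limma adjusted p = 6.68e-05).

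The paralogs *Bhlhe40* and *Bhlhe41* encode closely related basic helix-loop-helix repressors and sorted apart. *Bhlhe40* (ENSMUSG00000030103, chr6:108636626-108644502) was 49.4 and 48.3 TPM in WT, 98.4 and 92.9 TPM in CypD KO, 96.8 and 100.2 TPM in Control, and 48.5 and 55.1 TPM in CypD OE-labelled libraries. It rose in both groups, by 0.95 in CypD KO (limma adjusted p = 5.5e-05) and 1.00 in Control (limma adjusted p = 0.000197), and the groups differed from each other by -0.04 (95% interval -0.20 to 0.12).

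*Bhlhe41* (ENSMUSG00000030256, chr6:145803969-145811430) was 90.9 and 97.0 TPM in WT, 76.2 and 72.8 TPM in CypD KO, 125 and 116 TPM in Control, and 65.2 and 73.0 TPM in CypD OE-labelled libraries. It fell in CypD KO by 0.33 (limma adjusted p = 0.00692) and rose in Control by 0.36 (limma adjusted p = 0.0111), and CypD KO and Control differed by -0.69 (limma adjusted p = 0.000298). The rise in Control did not pass the test without the first WT library (0.31, limma adjusted p = 0.0606) or without the first Control library (0.31, limma adjusted p = 0.0611).

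*Fut11* (ENSMUSG00000039357, chr14:20744972-20751327), named *Pofut4* in GENCODE vM39 and encoding a fucosyltransferase, was 7.94 and 7.26 TPM in WT, 9.49 and 8.49 TPM in CypD KO, 9.34 and 10.4 TPM in Control, and 9.48 and 9.50 TPM in CypD OE-labelled libraries. All 3 other groups were above WT, and they overlapped each other. Its difference of 0.34 in Control was at the edge of the threshold (limma adjusted p = 0.0488) and missed it when any 1 library was left out (limma adjusted p = 0.0598 to 0.196). In CypD KO the difference was 0.22 (limma adjusted p = 0.112).

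The 2 genes raised in neither were *Ets1* and *Cited2*. *Ets1* (ENSMUSG00000032035, chr9:32547517-32669116), a transcription factor of the ETS family, was 214 and 218 TPM in WT, 174 and 169 TPM in CypD KO, 178 and 183 TPM in Control, and 181 and 179 TPM in CypD OE-labelled libraries. WT was the high group and the other 3 lay close together. On the log2 scale it differed from WT by -0.33 in CypD KO (limma adjusted p = 0.000208) and -0.26 in Control (limma adjusted p = 0.00198), which made it the 1 member that was lower in Control. *Cited2* (ENSMUSG00000039910, chr10:17598966-17601792), which competes with HIF for the coactivators CBP and p300, was 84.7 and 78.9 TPM in WT, 76.2 and 77.7 TPM in CypD KO, 75.9 and 77.1 TPM in Control, and 59.6 and 59.9 TPM in CypD OE-labelled libraries. Its differences of -0.09 in each comparison did not pass the test, except under median-of-ratios rescaling, when it was -0.20 in CypD KO (limma adjusted p = 0.0113).

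**Figure D3:**
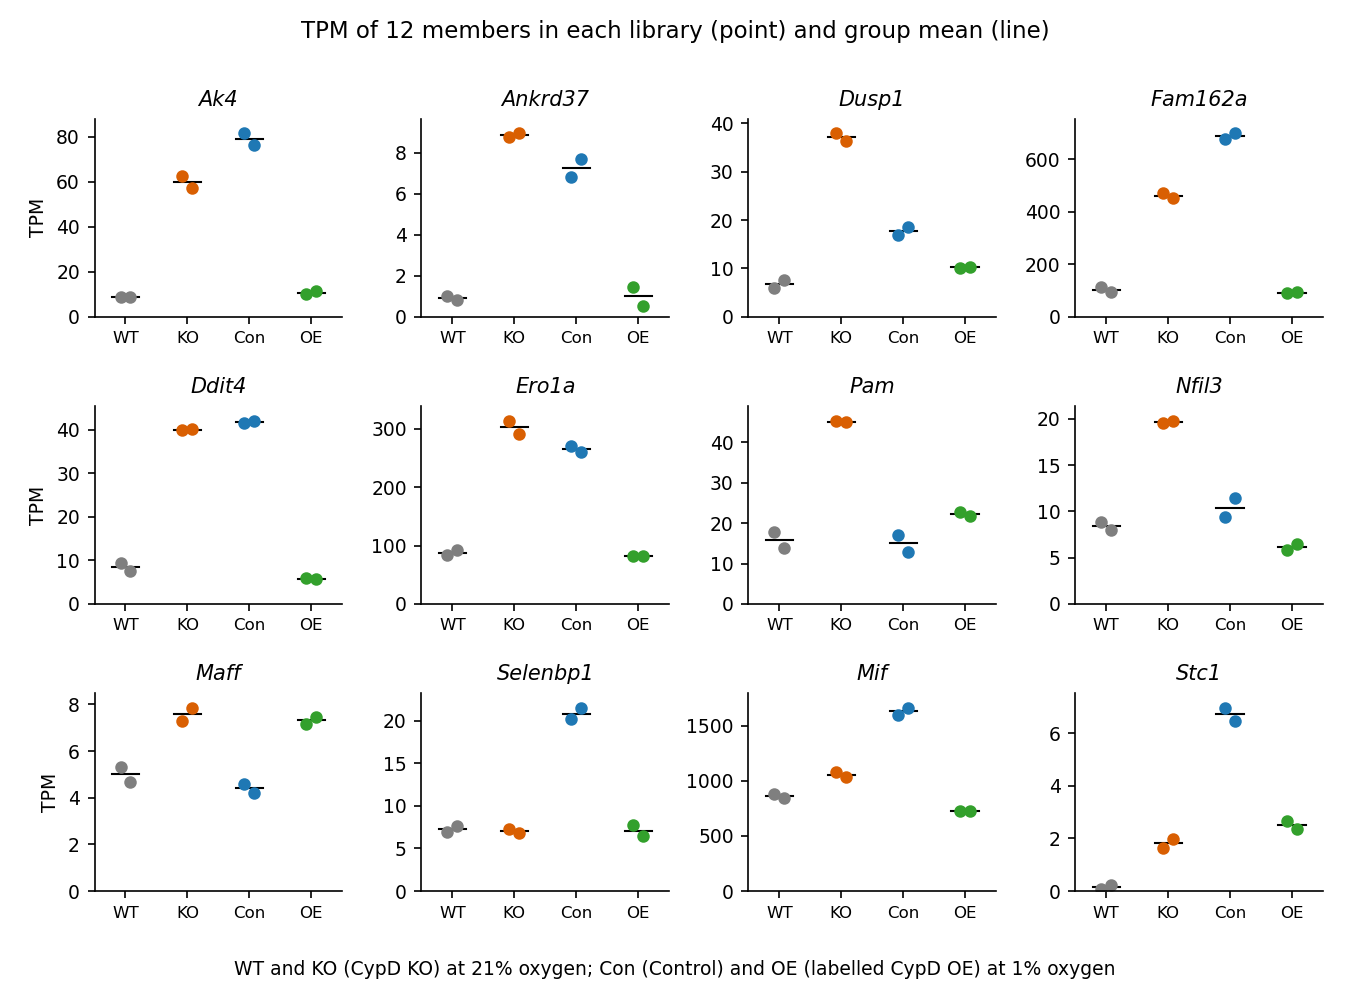
TPM (linear axes from 0) of 12 members in each library (points) and as group means (lines), for WT and CypD KO at 21% O2 and for Control (Con) and CypD OE-labelled libraries (OE) at 1% O2. *Ak4*, *Ddit4* and *Ero1a* are high in CypD KO and Control, *Pam* and *Nfil3* are high in CypD KO, and *Selenbp1* is high in Control.

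Set against each other, CypD KO at 21% O2 and Control at 1% O2 differed in 18 of the 31 members, 8 being higher in CypD KO and 10 lower, where 27.4% of all genes were higher and 16.5% lower. Of the 19 genes raised in both, 5 were higher in CypD KO (*Dusp1*, *Sdc4*, *Tes*, *Ccng2*, *Ero1a*), 7 were lower (*Stc1*, *Mif*, *Fam162a*, *Narf*, *Ak4*, *Cp*, *Sap30*) and 7 were not called. The differences past the threshold that were largest in size were those of *Pam*, *Stc1*, *Selenbp1*, *Dusp1*, *Sdc4* and *Tes*. The calls of *Ccng2* (limma adjusted p = 0.044), *Ero1a* (0.0466), *Sap30* (0.0449) and *Cp* (0.0457) were each lost when 1 of several libraries was left out, with the limma adjusted p up to 0.193, 0.219, 0.209 and 0.211, and that of *Ak4* was lost without the second CypD KO library (0.0536) or the first Control library (0.0526).

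*Sdc4* (ENSMUSG00000017009, chr2:164266025-164285807), a heparan sulfate proteoglycan of the cell surface, was 21.5 and 22.6 TPM in WT, 69.5 and 71.2 TPM in CypD KO, 32.9 and 37.0 TPM in Control, and 40.9 and 36.4 TPM in CypD OE-labelled libraries. CypD KO was high and the other 2 lines shared a level between it and WT. Its log2 difference from WT was 1.63 in CypD KO (limma adjusted p = 1.19e-05) and 0.64 in Control (limma adjusted p = 0.00206), and CypD KO exceeded Control by 0.99 (standard error 0.08, limma adjusted p = 0.000109).

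*Tes* (ENSMUSG00000029552, chr6:17065144-17105827), which encodes the focal adhesion protein testin, was 49.5 and 50.1 TPM in WT, 147 and 137 TPM in CypD KO, 77.8 and 76.7 TPM in Control, and 65.9 and 65.3 TPM in CypD OE-labelled libraries. All 3 lines were above WT. CypD KO exceeded WT by 1.49 and Control by 0.87 on the log2 scale (standard error 0.04, limma adjusted p = 1.87e-06 and 1.76e-05). *Dusp1* exceeded Control by 1.02 (limma adjusted p = 0.000423).

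*Stc1* (ENSMUSG00000014813, chr14:69266575-69279253), the secreted glycoprotein stanniocalcin, went the other way. It was 0.09 and 0.22 TPM in WT, 1.63 and 1.99 TPM in CypD KO, 6.98 and 6.48 TPM in Control, and 2.67 and 2.35 TPM in CypD OE-labelled libraries. Every other group lay above WT, and Control was highest. Only through those other groups did it pass the filter. Relative to WT, the log2 difference was 1.28 in CypD KO (limma adjusted p = 0.000497), 2.74 in Control (limma adjusted p = 8.48e-05) and 1.60 in CypD OE-labelled libraries (limma adjusted p = 0.000592), and that between CypD KO and Control was -1.46 (standard error 0.15, limma adjusted p = 0.000313). Its paralog *Stc2* was listed at 0 in all 8 libraries.

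**Figure D4:**
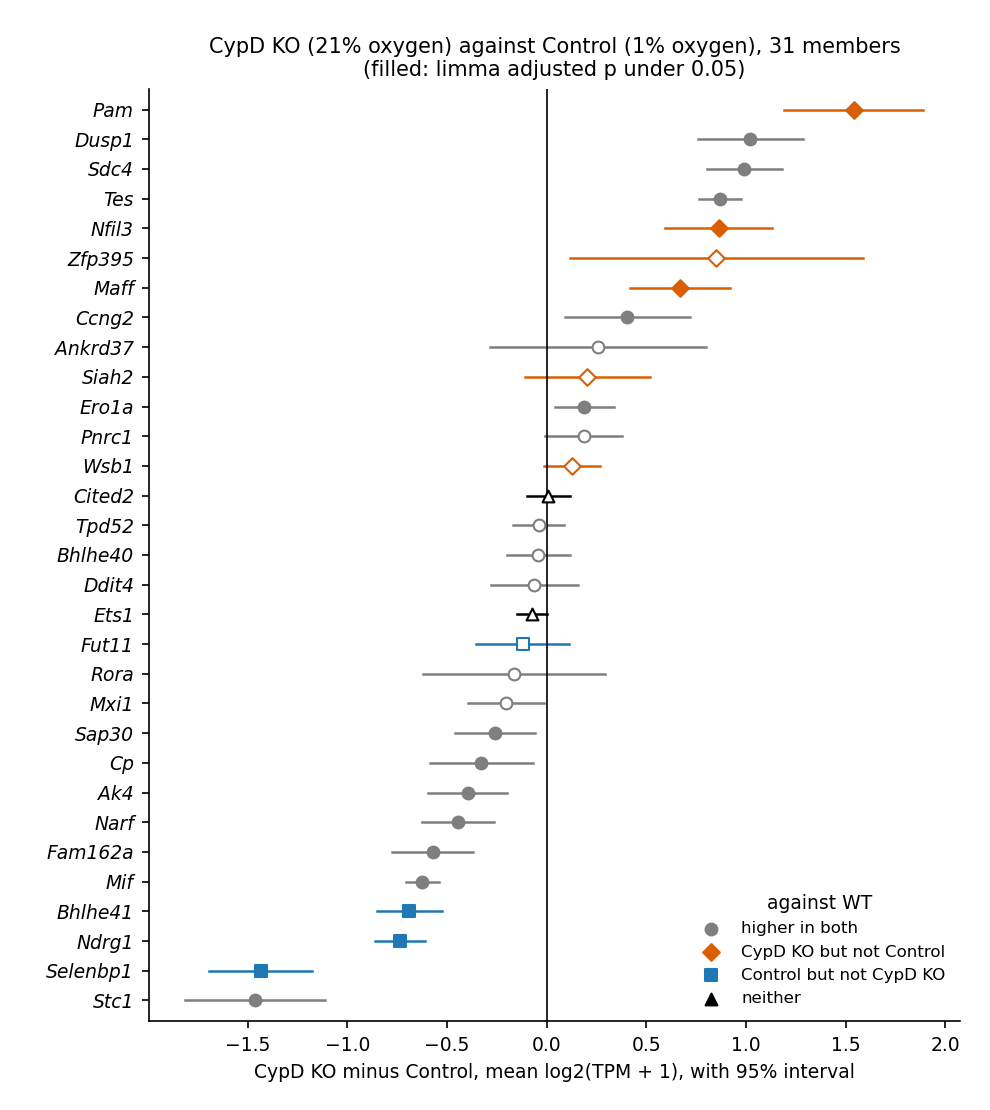
Difference in mean log2(TPM + 1) of CypD KO (21% O2) minus Control (1% O2) for the 31 tested members, with 95% intervals, marked by their set against WT and filled where the limma adjusted p was under 0.05. The points run from -1.46 (*Stc1*) to 1.54 (*Pam*), and genes raised in both lie on either side of 0.

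At 1% O2, most of these targets were lower in CypD OE-labelled libraries than in Control. Of the 31, 23 were lower and 2 higher, where 18.3% of all genes were lower and 19.0% higher, and 14 were lower by at least 1, a size reached by 2.82% of all genes. The median log2 difference over the members was -0.90, and 0.00 over all genes. Among the 19 genes raised in both CypD KO and Control, 18 were lower, by 0.23 (*Tes*) to 2.89 (*Fam162a*), and the exception was *Sdc4* at 0.14 (limma adjusted p = 0.209). *Fam162a* differed by -2.89 (limma adjusted p = 2.41e-06), *Ak4* by -2.76 (2.51e-06), *Ddit4* by -2.67 (4.67e-06) and *Ankrd37* by -2.09 (0.000627). Of the 4 called in Control but not in CypD KO, *Selenbp1* (-1.44), *Ndrg1* (-1.25) and *Bhlhe41* (-0.80) were lower, and *Fut11* was at -0.05 (limma adjusted p = 0.746). The 6 called in CypD KO but not in Control split differently. *Nfil3* was lower by 0.68 (limma adjusted p = 0.00386), *Maff* was higher by 0.62 (limma adjusted p = 0.0041) and *Pam* was higher by 0.56 (limma adjusted p = 0.024), while *Zfp395*, *Siah2* and *Wsb1* were not called. The call of *Pam* was lost without the second Control library (0.37, limma adjusted p = 0.106) or without either CypD OE-labelled library (limma adjusted p = 0.0985 and 0.0741). *Cited2* was lower by 0.35 (limma adjusted p = 0.00125) and *Ets1* was not called (95% interval -0.08 to 0.07).

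Against WT at 21% O2, CypD OE-labelled libraries at 1% O2 were higher in 7 members, lower in 10 and not called in 14, where 14.0% of all genes were higher and 13.7% lower. The number higher was 4 without the first and 3 without the second of these libraries. Members raised in Control stood here near their WT level in several cases, with a log2 difference of -0.09 for *Ero1a* (95% interval -0.24 to 0.05), -0.16 for *Fam162a* (-0.36 to 0.04) and 0.08 for *Bhlhe40* (-0.08 to 0.24). Without the second WT library *Fam162a* was called lower, at -0.30 (limma adjusted p = 0.00942). *Ndrg1* (-0.73, limma adjusted p = 0.000261), *Narf* (-0.56, limma adjusted p = 0.00248) and *Ddit4* (-0.48, limma adjusted p = 0.00963) were lower than in WT, though the call of *Ddit4* was lost in a fit of these 4 libraries alone (limma adjusted p = 0.055). *Stc1* and *Sdc4* (0.78, limma adjusted p = 0.000778) were the members furthest above it. WT and CypD OE-labelled libraries differ in oxygen, in the pcDNA-CypD construct and in the selection of clones, which cannot be told apart.

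The 7 members that did not pass the filter were at or near 0 in WT. *Stc2* and *Nrn1* (neuritin) were listed at 0 in every library, *Tmem45a* at 0.03 TPM in 1 CypD KO library alone, and *Igfbp3*, a binding protein for insulin-like growth factors, at 0.04 TPM in 1 WT library alone. *Vldlr*, a lipoprotein receptor, was 0.12 and 0.01 TPM in WT, 1.00 and 0.86 TPM in CypD KO, 0.62 and 0.39 TPM in Control and listed at 0 in both libraries labelled CypD OE. *Fam13a*, which carries a RhoGAP domain, was 0.02 and 0.05 TPM in WT, 0.52 and 0.77 TPM in CypD KO, 0.05 and 0.10 TPM in Control, and 0.50 and 0.43 TPM in CypD OE-labelled libraries. *Ppfia4*, a liprin, was 0.10 and 0.09 TPM in CypD KO, 0.05 and 0.06 TPM in CypD OE-labelled libraries and 0 elsewhere. In a fit without the filter, the log2 difference of CypD KO from WT was 0.86 for *Vldlr* (limma adjusted p = 0.00208) and 0.66 for *Fam13a* (limma adjusted p = 0.00326). Both rest on levels of 1 TPM or less.

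The genes that control HIF were measured beside its targets. *Hif1a* was 139 and 152 TPM in WT, and its log2 difference was 0.08 in CypD KO (limma adjusted p = 0.24) and -0.09 in Control (limma adjusted p = 0.262). It was lower in CypD OE-labelled libraries than in Control (-0.47, limma adjusted p = 0.000609) and than in WT (-0.55, limma adjusted p = 0.00058). *Egln3* and *Egln1*, prolyl hydroxylases that are HIF targets themselves, rose by 1.99 and 1.62 in CypD KO and by 1.93 and 2.15 in Control, and *Vhl* by 0.83 and 0.72. *Epas1*, which encodes the alpha subunit of HIF-2, was lower in Control (-0.99, limma adjusted p = 0.00386) and was at -0.06 in CypD KO (limma adjusted p = 0.751). *Arnt* was higher in CypD KO (0.31, limma adjusted p = 0.0135) and was at 0.05 in Control (limma adjusted p = 0.642). *Egln2* was lower in Control (-0.28, limma adjusted p = 0.0422) and was at -0.22 in CypD KO (limma adjusted p = 0.0525). Of 21 other tested HIF targets outside this list, *Egln3* again among them, 19 were higher in CypD KO and 18 in Control, with none lower. Of 20 glycolytic targets 16 and 16 were higher, with 1 lower in Control. Both lists, like the members, were chosen with earlier results of these data known. Over all genes tested, 30.1% were higher and 18.4% lower in CypD KO, and 12.1% were higher and 12.1% lower in Control. *Ddit4*, *Vldlr* and *Stc2* are also targets of the stress factor ATF4. Of 13 other genes in a list of ATF4 targets, which includes *Atf4* itself, 8 were higher and 3 lower in CypD KO. In Control 2 were higher and 6 lower. The part of ATF4 and of the immediate early response in the members' levels was not tested.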

How the data were processed

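Per the labels and the study's methods, the authors made libraries from total RNA after depletion of ribosomal RNA, sequenced them in paired ends, trimmed with Cutadapt 3.4, aligned with STAR 2.7.8a to GRCm39 and ran RSEM 1.3.1. Its output was deposited as TPM, scaled by the authors to a fixed total in each library, so a rise of abundant transcripts lowers all other values. Read counts were not used here. The strand setting is not given in the sources used here. Groups come from the sample labels, and 0 columns had no sample.

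Values on the log2(TPM + 1) scale were tested in R 4.3.3 by limma 3.58.1 (eBayes with a trend, 1 mean per group, all 8 libraries), two-sided, with adjustment over the 13526 genes that passed the filter of 1 TPM in 2 libraries. The script was tested on simulated data. Depth was read from the steps between low TPM values (83.7% to 86.6% within 0.15 of a whole fragment, 30% if evenly spread) and is an estimate. Where a symbol had 2 rows, the row with the higher mean was used, except for *Ddit3*.

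The members and all lists were chosen with earlier results of these data known. One gene of the leukocyte marker list is not reported here. Each member was accounted for by role. Values in every library were given for the 4 members that differed most within each set, for members lower than WT, for 2 paralog pairs and for the 6 with the largest difference between CypD KO and Control, and also for the members under the filter. Alternatives were another pseudocount, other filters, median-of-ratios rescaling, eBayes without a trend, fits of each comparison's 4 libraries alone, a replicate block, and leaving out each library.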

Additional observations from a re-analysis of the deposited data

How the results depend on the processing

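Over 15 alternatives the sorting of the 19 members higher in both CypD KO and Control held in each in which they were tested, as did that of 5 of 6 called in CypD KO but not Control (the exception was *Siah2*), of 2 of 4 called in Control but not CypD KO (the exceptions were *Bhlhe41* and *Fut11*) and of the 2 called in neither. Of 2317 member values under the alternatives, 2179 kept their direction and side of the threshold, 106 no longer passed it, 13 newly passed it and 19 changed sign, all of these last from values that had not passed. With no filter on low TPM, members higher in the libraries labelled CypD OE than in Control numbered 1 and those sorted as higher in neither 4, which was also 4 under median-of-ratios rescaling. The sign turned for *Ankrd37* in CypD OE against WT with a pseudocount of 0.1 (-0.019) and for *Cited2* in CypD KO against Control under median-of-ratios rescaling (-0.083). The cause was not tested. Leaving out 1 library at a time, with the lone library assumed to vary like the other groups, gave 1 to 2 members higher in CypD OE against Control, 3 to 7 higher in CypD OE against WT, 2 to 3 sorted as Control but not CypD KO, and 3 to 5 sorted as neither. The log2 difference ranged from -0.32 to 0.38 for *Ankrd37*, from -0.011 to 0.17 for *Bhlhe40* and from -0.16 to 0.078 for *Selenbp1* in CypD OE against WT, from -0.092 to 0.022 for *Selenbp1* in CypD KO against WT, from -0.27 to 0.10 for *Pam* in Control against WT, and from -0.0051 to 0.022 for *Cited2* in CypD KO against Control. In CypD OE against Control it ranged from -0.022 to 0.014 for *Ets1*, from -0.12 to 0.021 for *Fut11*, from -0.24 to 0.063 for *Siah2* and from -0.012 to 0.062 for *Wsb1*. With the replicate number as a replicate block, 25 members were higher in CypD KO and 22 in Control, and 9 member values no longer passed while 1 did so newly, the former including *Fut11* in Control against WT (limma adjusted p = 0.074) and *Ero1a* in CypD KO against Control (0.0719). Same-numbered libraries of different groups correlated at -0.03 to 0.11, so the numbers were not taken as pairs. Depth limits the precision of members at 1 TPM or less.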
